A study of Mus musculus with 89 samples.

Results

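A set of 10 little studied transcripts that rose at the villus tip of mouse jejunum was followed across the crypt-villus axis and across cell types: Gm14085, 2010109I03Rik, Gprc5a, Rasgef1b, 4930539E08Rik, Gm10680, Susd2, Tmcc3, Tlcd2 and Sprr2a3. The 10 genes were chosen by their names, as genes that rose at the tip in sorted clumps of attached cells. All 10 were present in the clump table, which holds 27538 genes, and in the single cell table, which holds 23379 genes. Because the clumps chose them, their clump values are given as a description without a test. Single cells came from other libraries and were tested, although results of both tables were known when the genes were picked.

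Clumps and single cells came from the jejunal epithelium of male C57BL/6 mice on regular chow, dissociated with EDTA. All mice were 3 months old, except that 3 of the 16 single cell plates of mouse 2 were labelled 4 months. No mouse carried a transgene or received a drug according to the labels. Clumps were sorted by Hoechst DNA content as pairs of cells (4n, mice 1 to 5) or larger clumps (above 4n, mice 1, 4 and 5), and clumps above 2n came from mouse 6. Single cells were EpCAM+ cells gated as CD45- or by CD24, and mice 1 to 4 of the single cells were numbered apart from those of the clumps. The labels do not tell which plates were gated in which way. Each plate well was sequenced at the 3′ end by MARS-seq, and transcripts were counted by unique molecular identifiers (UMIs). The clump table held 38454111 UMIs on 45 plates and that of single cells 39137313 UMIs on 44 plates. Plates ranged from 94810 to 4153056 UMIs for clumps and from 109338 to 2348338 for single cells. The same set of well barcodes was used on every plate, so a cell was identified by plate and barcode together.

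Enterocytes, the absorptive cells of the intestine, are born in crypts, move up the villus and are shed at its tip within days. Along this path they change from making antimicrobial and amino acid handling proteins to making lipoproteins and, at the tip, adhesion and nucleotide salvage proteins. Goblet cells (mucus), tuft cells (chemosensing) and enteroendocrine cells (hormones) travel the same path in smaller numbers. The genes described here fall into several kinds. Gm14085, named Slc28a2b by RefSeq, is a near copy of Slc28a2, a sodium-coupled nucleoside transporter. 2010109I03Rik (Ly6m) belongs to the Ly6 family of small surface proteins, Gprc5a is an orphan G protein-coupled receptor induced by retinoic acid, and Susd2 is a membrane protein with a sushi domain. Rasgef1b is an exchange factor for Ras-like GTPases. Tmcc3 and Tlcd2 are membrane proteins, the former of the endoplasmic reticulum. Sprr2a3 is a small proline-rich protein of the kind that is cross-linked under the membrane of barrier epithelia. 4930539E08Rik (Bnip5 in RefSeq) is a little known coding gene, and Gm10680 is annotated as an antisense RNA.

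In GRCm38 with GENCODE M21 annotation, Gm14085 is a coding gene on chromosome 2 from 122484941 to 122528040 (+). Gm10680 lies on chromosome 9 from 46242621 to 46243529 (-), where 632 of its 702 exonic bases (90.0%) overlap exons of Apoa4 on the opposite strand. 4930539E08Rik lies on chromosome 17 from 28896392 to 28915324 (-), 2010109I03Rik on chromosome 15 from 74876987 to 74897021 (-) and Rasgef1b on chromosome 5 from 99217426 to 99729065 (-). Susd2 lies on chromosome 10 from 75636706 to 75644008 (-), and Tmcc3 on the same chromosome from 94311949 to 94590956 (+). Tlcd2 lies on chromosome 11 from 75461715 to 75470899 (+) and shares 206 of 1936 exonic bases with Mir22hg. Gprc5a lies on chromosome 6 from 135065651 to 135084709 (+), and Sprr2a3 on chromosome 3 from 92285417 to 92291405 (+). Apart from Gm10680, all are annotated as protein coding.

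RefSeq promoter windows (GRCm38.p6, 250 bases before to 50 after a start site) were at hand for 6 of the 10 genes, in 11 windows of which 6 belonged to Tmcc3. Windows are shown for Gm14085 and its near copy Slc28a2, since both were nearly absent below the tip, for Sprr2a3, whose 3 copies share most of the window, and for Tmcc3, which held the rarest motif searched. Capitals mark matches on either strand. The motifs searched were TGANTCA for the AP-1 factors, TGACGTCA for CRE, AGATAA for the GATA factors, CAAAGTCCA for HNF4, CCACCC for the KLF factors and TTTATG for CDX. The E-box letters CANNTG were searched as well and are not capitalised.
Gm14085, chr2:122484691-122484990 (+): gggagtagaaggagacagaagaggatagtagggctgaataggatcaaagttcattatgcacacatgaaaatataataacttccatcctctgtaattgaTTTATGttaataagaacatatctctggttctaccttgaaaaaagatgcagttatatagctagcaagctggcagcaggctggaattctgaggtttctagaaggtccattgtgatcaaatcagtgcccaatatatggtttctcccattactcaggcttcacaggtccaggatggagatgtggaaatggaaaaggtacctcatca
Slc28a2, chr2:122426185-122426484 (+): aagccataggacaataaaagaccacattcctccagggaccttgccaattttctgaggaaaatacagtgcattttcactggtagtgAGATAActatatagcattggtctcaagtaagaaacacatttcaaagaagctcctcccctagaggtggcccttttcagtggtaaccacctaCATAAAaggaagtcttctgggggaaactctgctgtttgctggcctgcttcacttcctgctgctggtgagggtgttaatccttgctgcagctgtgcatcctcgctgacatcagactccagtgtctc
Sprr2a3, chr3:92285054-92285353 (+): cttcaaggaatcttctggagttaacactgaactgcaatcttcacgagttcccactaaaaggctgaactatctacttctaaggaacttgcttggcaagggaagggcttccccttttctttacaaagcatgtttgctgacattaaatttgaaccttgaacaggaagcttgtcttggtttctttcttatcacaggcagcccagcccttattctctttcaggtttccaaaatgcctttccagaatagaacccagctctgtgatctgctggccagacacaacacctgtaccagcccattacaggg
Tmcc3, chr10:94550622-94550921 (+): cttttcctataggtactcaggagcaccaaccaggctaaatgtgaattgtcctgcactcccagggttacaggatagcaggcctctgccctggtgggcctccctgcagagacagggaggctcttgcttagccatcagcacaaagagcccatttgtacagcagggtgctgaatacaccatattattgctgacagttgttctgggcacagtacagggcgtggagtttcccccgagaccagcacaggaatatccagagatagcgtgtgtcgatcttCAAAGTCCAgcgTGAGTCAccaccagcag

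The HNF4 letters were found in 2 overlapping windows of Tmcc3 and in 0.475% of the 32851 promoter windows of this length. The same 2 windows held AP-1, which was present in 7.81% of all windows. CDX letters were found in 1 window (Gm14085; 11.9% of all windows), GATA in 2 (Tlcd2 and 1 of Tmcc3; 11.2%), KLF in 5 windows of 3 genes (31.5%), E-boxes in 9 windows of 5 genes (72.3%) and CRE in none (1.79%). The Sprr2a3 window shared an unbroken run of 272 bases with those of Sprr2a1 and Sprr2a2. These matches are letters in a window and were not tested against the expression data.

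To place clumps along the axis, each clump was assigned to crypt, mid-villus or villus tip by the enterocyte landmark genes that correlated best with it. The landmark lists were used without 2010109I03Rik, Gprc5a and Slc28a2, so that none of the 10 genes placed the clumps. Apoa4, which overlaps Gm10680 on the other strand, stayed in the lists. In mice 1 to 5 this gave 3516 crypt, 1528 mid-villus and 839 tip clumps. Their UMIs were summed per mouse and zone and divided by the sum's total, and levels are given as CPM, UMIs scaled to the same total in every sum. Tip sums ranged from 76411 UMIs (mouse 4, 26 clumps) to 862019 UMIs (mouse 3, 317 clumps), so low levels are least certain in mouse 4. In sums of many cells, fewer cells of a type and less RNA per cell cannot be told apart.

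In all 5 mice each of the 10 genes exceeded its crypt level at the tip, and the 2 groups did not overlap for any of them. Across all 7256 genes tested in clumps, 53.3% differed between tip and crypt and 23.0% rose (edgeR's quasi-likelihood test, Benjamini-Hochberg adjusted p under 0.05), and in 7.48% every tip sum exceeded every crypt sum. Their fitted log2 change from crypt to tip ranged from 2.59 ± 0.32 (SE) for Tmcc3 to 8.14 ± 0.94 for 2010109I03Rik. Their median, 6.85, was 5.07 in pairs of cells alone. Clump size differed between zones, since 1781 of the 2098 crypt clumps of mouse 4 were above 4n, whereas most tip clumps were pairs, and its part was not tested further. From mid-villus to tip, 5.25% of all genes rose and in 2.12% every tip sum exceeded every mid-villus sum, which held for 8 of the 10, for Tmcc3 by less than 1 CPM. From crypt to mid-villus 19.3% rose and 6.82% did not overlap, which held for 4 of the 10. Since the genes were picked for rising at the tip of these clumps, nothing is read from any of these counts. The genes are described below by their level at mid-villus.

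**Figure D1:**
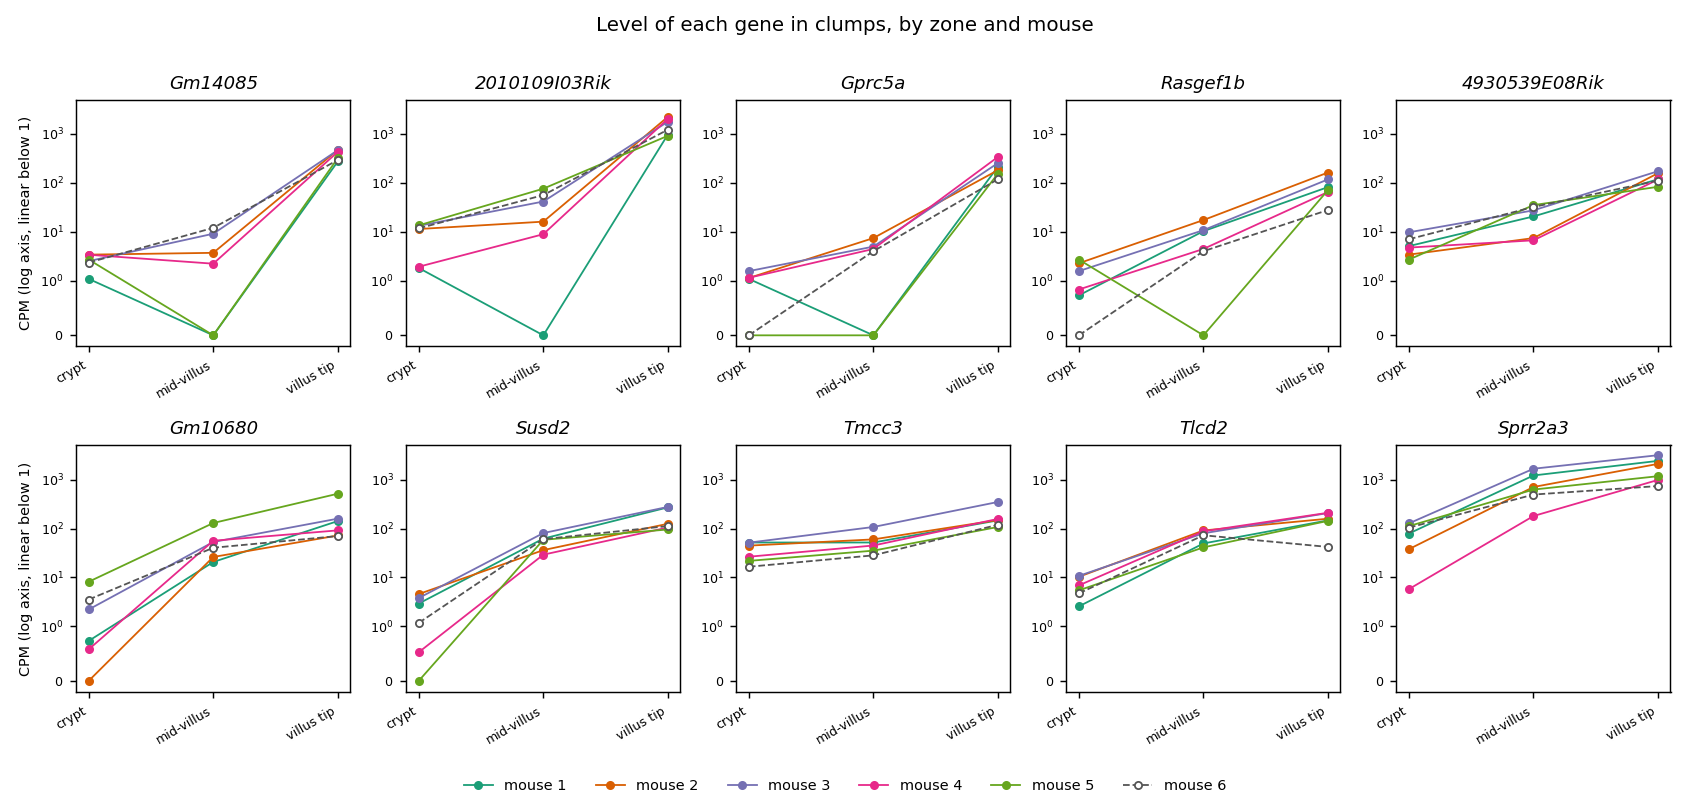
Level of each of the 10 genes in clumps of the crypt, mid-villus and villus tip, in CPM on a log axis that is linear below 1. Each solid line with filled points is 1 of mice 1 to 5, and the dashed line with open points is mouse 6. All tip points of mice 1 to 5 lie above their crypt points, and at mid-villus the points of Gm14085, 2010109I03Rik and Gprc5a overlap those of the crypt.

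Gm14085, 2010109I03Rik and Gprc5a were the lowest at mid-villus, relative to their tip level. Gm14085 measured 1.10, 3.44, 2.54, 3.42 and 2.73 CPM in the crypts of mice 1 to 5. At mid-villus it measured 0, 3.74, 9.19, 2.25 and 0, and at the tip 275, 473, 468, 432 and 322. Crypt and mid-villus overlapped, and the lowest tip value was far above both. Pooled over mice, the tip held 78.2 times the mid-villus level (95% counting interval 52.9 to 121; such intervals cover counting error only). Of the 26 mid-villus UMIs behind this, 22 came from mouse 3. The ratio of mean levels was 130, and the fitted log2 change, 6.68, was 8.00 without mouse 3.

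2010109I03Rik measured 975, 2241, 1781, 2042 and 919 CPM at the tip. Its crypt values ran from 1.84 to 13.6 and its mid-villus values from 0 in mouse 1 to 76.5 in mouse 5. The mid-villus and crypt ranges overlapped. The log2 change from mid-villus to tip was 6.09 ± 0.86, against 2.05 ± 0.84 from crypt to mid-villus.

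Gprc5a measured 215, 183, 255, 340 and 155 CPM at the tip, and at most 7.49 at mid-villus and 1.59 in the crypt. Its log2 change from mid-villus to tip was 5.98 ± 0.42. Only 20 UMIs of Gprc5a were counted over all mid-villus clumps of the 5 mice and 31 over all crypt clumps.

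Rasgef1b and 4930539E08Rik were low but present at mid-villus. Rasgef1b measured 82.4, 163, 118, 65.4 and 71.6 CPM at the tip, 0 to 17.5 at mid-villus and 0.734 to 2.73 in the crypt. 4930539E08Rik measured 119, 159, 174, 118 and 83.6 at the tip, 6.74 to 35.3 at mid-villus and 2.73 to 9.83 in the crypt. For both genes the tip stood clear of the mid-villus, while mid-villus and crypt overlapped.

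Susd2, Gm10680, Tlcd2 and Sprr2a3 stood above the crypt at mid-villus without overlap, and Tmcc3 did not. Susd2 measured 270, 125, 276, 105 and 95.5 CPM at the tip, 62.2, 36.2, 80.7, 29.2 and 58.8 at mid-villus, and 0 to 4.59 in the crypt. All 3 zones were separate for Susd2. Tlcd2 rose in the same stepwise way, from 2.57 to 10.8 in the crypt to 41.2 to 91.1 at mid-villus and 143 to 209 at the tip.

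Sprr2a3 measured 78.9, 37.8, 127, 5.79 and 112 CPM in the crypt, 1210, 704, 1661, 180 and 623 at mid-villus, and 2403, 2087, 3139, 982 and 1170 at the tip. Mid-villus and tip overlapped between mice, although the tip was higher within each of the 5. Tmcc3 was counted in all 3 zones, at 21.8 to 51.8 in the crypt and 35.3 to 107 at mid-villus, and these overlapped. Its log2 change from crypt to mid-villus was 0.83 ± 0.31. Its tip values were 147, 149, 348, 157 and 107, with mouse 3 apart from the rest.

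Gm10680 measured 142, 72.1, 159, 91.6 and 513 CPM at the tip and 20.7, 26.2, 53.1, 56.2 and 129 at mid-villus, and 0 to 8.18 in the crypt. Mouse 5 was the highest in all 3 zones. Gm10680 overlaps Apoa4, the abundant lipoprotein gene of the upper villus, on the other strand. Per 1000 UMIs of Apoa4, Gm10680 gave 5.48 (95% counting interval 3.47 to 8.24) in the crypt, 9.51 (8.27 to 10.9) at mid-villus and 7.21 (6.34 to 8.17) at the tip. Between mice this ratio at the tip ran from 2.66 to 39.3. In the 4 bins of enterocyte-like single cells, described below, the ratio was 3.33, 2.85, 2.99 and 2.94 from crypt-ward to tip-ward, with overlapping counting intervals. Apoa4 itself measured 13060 to 27100 CPM at the tip. Reads were counted by strand in the methods, and how far reads of Apoa4 enter the count of Gm10680 was not tested. Apoa4 was also a landmark that placed clumps and cells. With Apoa4 left out of the landmarks, the median log2 change of the 10 genes from crypt to tip was 6.82, against 6.85.

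Measured within each mouse, the mid-villus level was a median of 0.520% of the tip level for Gm14085, 0.724% for 2010109I03Rik and 1.32% for Gprc5a. It was 9.18% for Rasgef1b and 15.9% for 4930539E08Rik. The other 5 reached 29.0% (Susd2), 32.9% (Tmcc3), 33.4% (Gm10680), 38.7% (Tlcd2) and 50.3% (Sprr2a3). As a ratio of means, the mid-villus level of the 1669 tested genes that rose from crypt to tip had a median of 76.0% of the tip level. Landmark genes were left out of this set, apart from those among the genes followed here. Within the set Gm14085, at 0.771%, had the lowest value. Since Gm14085 was picked for its rise at the tip of these clumps, nothing is read from this rank. The ranges over mice of Gm14085 (0 to 1.97%), 2010109I03Rik (0 to 8.32%) and Gprc5a (0 to 4.10%) overlapped, as did those of Susd2, Tmcc3, Gm10680, Tlcd2 and Sprr2a3. The range of Rasgef1b (0 to 12.6%) overlapped with the former and that of 4930539E08Rik (4.72 to 42.2%) with 2010109I03Rik and with all of the latter.

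**Figure D2:**
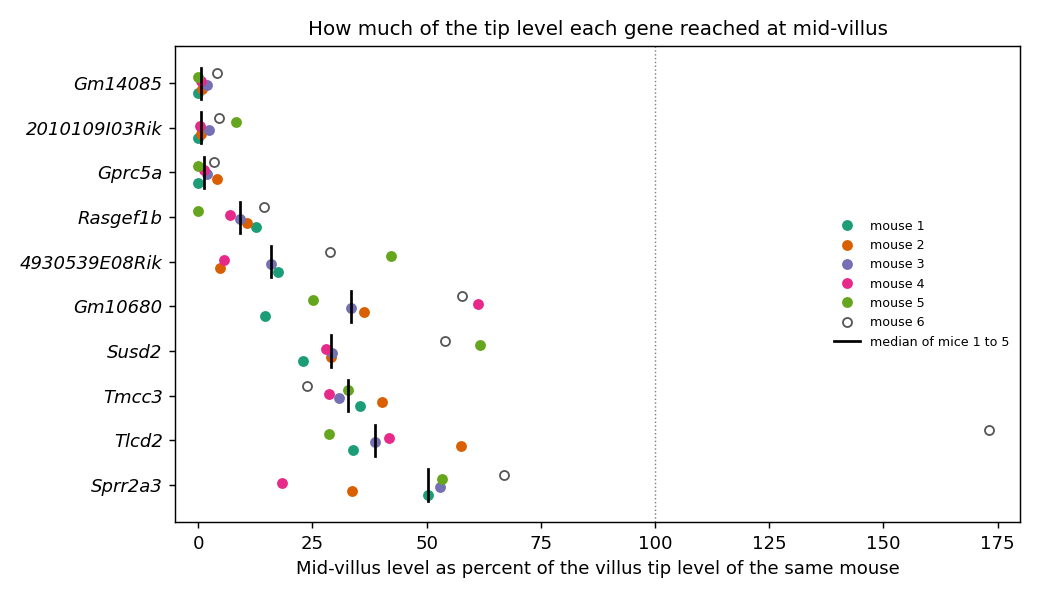
Mid-villus level as a percentage of the villus tip level of the same mouse (x axis), for each of the 10 genes. Filled points are mice 1 to 5, open points mouse 6, black lines the median of mice 1 to 5, and the dotted line marks 100%. Medians run from 0.520% for Gm14085 to 50.3% for Sprr2a3, and Tlcd2 in mouse 6 lies at 173%, from 18 mid-villus and 6 tip UMIs.

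Mouse 6, whose clumps were sorted above 2n, gave 144 crypt, 56 mid-villus and 72 tip clumps. It is 1 animal, so its values have no replicate check. In mouse 6, Gm14085 measured 2.37, 12.1 and 294 CPM from crypt to tip, 2010109I03Rik 11.8, 56.6 and 1226, and Gprc5a 0, 4.04 and 119. The mid-villus values of Gm14085 and Gprc5a there rest on 3 UMIs and 1 UMI. All 10 genes again exceeded their crypt level at the tip. Tlcd2 was the exception above the crypt, at 72.8 at mid-villus and 42.1 at the tip, from 18 and 6 UMIs. Its ratio of tip to mid-villus, 0.578, had a 95% counting interval (0.188 to 1.52) that includes 1.

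Marker genes of other cells moved with the zones. The summed level of 12 goblet markers was 3149 to 6675 CPM in crypt clumps and 5848 to 25680 in tip clumps, and that of 12 immune markers 121 to 995 and 576 to 3969. The immune markers Cd3g and Trdc were at 0 at the tip, and so were the tuft markers Pou2f3 and Gng13. Their part in the levels of the 10 genes in clumps was not tested.

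Single cells that passed the filters formed 7 clusters, built without the 10 genes and their near copies and named by marker genes. These were 2479 enterocyte-like, 212 goblet-like, 187 tuft-like and 249 enteroendocrine-like cells, of which mouse 2 gave 158 of the tuft-like and 219 of the enteroendocrine-like cells, beside 1722 immune-like cells and 2 unnamed clusters. Enterocyte-like cells with at least 10 landmark UMIs were ranked within each mouse by the tip share of their landmark UMIs and cut into 4 bins of equal cell number. This asked whether the rise seen in clumps was also present within enterocytes alone, in libraries other than those of the clumps. The filter on low counts could be passed through the upper bins alone, so a gene low in the crypt-ward bin was tested because it was high elsewhere.

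All 10 genes had a higher mean in the tip-ward than in the crypt-ward bin. Rasgef1b, Gprc5a, Gm14085 and 2010109I03Rik passed the test (edgeR's quasi-likelihood test on mouse sums, Benjamini-Hochberg adjusted p over 3615 genes), and the other 6 did not. As the filter could be passed through the bins where a gene is high, this count and those under other settings are descriptions. Among all genes tested, 21.9% differed and 6.53% were higher in the tip-ward bin. With the mouse as a block, which the design allows since each mouse gave all 4 bins, all 10 passed. So did 1661 of all genes, 21.4% of the genes being higher tip-ward. The bins of mouse 1 lay apart: the median tip share of its crypt-ward bin was 0.954, against 0.50, 0.117 and 0.25 in mice 2 to 4. In mouse 1 every one of the 10 genes peaked in the second bin, and in mouse 2 the third bin was the highest for 6 genes and the second for Tlcd2. In mouse 1 the third and tip-ward bins both had a median tip share of 1.00, so they divide tied cells, and the second bin held the deepest cells (median 4588 UMIs, against 2534 tip-ward). The tip-ward cells of mice 2 and 4 were the shallowest of their mouse (median 1681 and 2008 UMIs). The part of depth in these peaks was not tested. Without mouse 1 all 10 passed (21.7% of all genes being higher tip-ward), without mouse 3 only 2 did (2.05%), and without mouse 2 or mouse 4 none did, nor did any other gene, although 930 and 745 had an unadjusted p under 0.05.

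Gm14085 measured 41.8, 5.70, 2.06 and 2.49 CPM in the crypt-ward bin of mice 1 to 4. In the tip-ward bin it measured 96.6, 193, 192 and 642. The bins did not overlap, and the log2 difference was 4.53 ± 1.51. Of its 27 crypt-ward UMIs, 23 came from mouse 1, beside 444 tip-ward. Since it passed the filter through the upper bins, its pooled ratio of 18.2 (95% counting interval 12.35 to 27.95) is given without a p. In mice 2 and 4 the third bin had already reached 185 and 276, whereas mouse 3 was at 1.93 there.

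2010109I03Rik behaved alike, with 87.3, 5.70, 0 and 15.0 CPM in the crypt-ward and 232, 1061, 451 and 1269 in the tip-ward bin. The log2 difference was 4.89 ± 1.68. Its 56 crypt-ward and 1098 tip-ward UMIs gave a pooled ratio of 21.7 (95% counting interval 16.6 to 28.9), without a p as for Gm14085. Gprc5a measured 12.7, 0, 0 and 4.98 against 28.8, 107, 49.4 and 110, with a log2 difference of 4.23 ± 1.19. Its 9 crypt-ward and 108 tip-ward UMIs gave a pooled ratio of 13.3 (6.75 to 29.8), again without a p.

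Rasgef1b had few UMIs, 5 in all crypt-ward and 43 in all tip-ward bins, yet the bins did not overlap. It measured 7.27, 0, 0 and 2.49 CPM against 8.22, 32.9, 28.8 and 42.5, with a log2 difference of 3.64 ± 0.95. Since it passed the filter through the upper bins, its pooled ratio of 9.52 (95% counting interval 3.78 to 30.8) is given in place of a p. In mouse 1 the 2 bins of Rasgef1b differed by less than 1 CPM. No overlap of bins was seen for 3.07% of all genes tested, and for these 4 of the 10.

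The remaining 6 genes overlapped between bins, mostly through mouse 1. Sprr2a3 measured 364, 65.5, 8.22 and 59.8 CPM in the crypt-ward and 243, 568, 735 and 902 in the tip-ward bin. Its log2 difference was 2.45 ± 0.86 (edgeR adjusted p = 0.050, just above the threshold). Susd2 measured 43.6, 5.70, 0 and 2.49 against 41.1, 65.8, 65.9 and 125, with a log2 difference of 2.67 ± 0.97 (edgeR adjusted p = 0.058).

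Gm10680 measured 20.0, 5.70, 0 and 0 CPM in the crypt-ward and 12.3, 24.7, 26.8 and 37.5 in the tip-ward bin, a log2 difference of 2.20 ± 0.84 (edgeR adjusted p = 0.068). 4930539E08Rik measured 54.5, 14.3, 2.06 and 7.48 against 82.2, 107, 53.5 and 155 (log2 2.61 ± 1.07, edgeR adjusted p = 0.086). Both genes were higher tip-ward in mice 2, 3 and 4, and 4930539E08Rik also in mouse 1.

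Tmcc3 differed least, from 65.4, 25.6, 18.5 and 44.9 CPM to 74.0, 90.5, 43.2 and 125 (log2 1.56 ± 0.64, edgeR adjusted p = 0.085), in the same direction in all 4 mice. Tlcd2 measured 80.0, 25.6, 4.11 and 0 crypt-ward and 69.9, 53.5, 72.1 and 117 tip-ward (log2 1.78 ± 0.92, edgeR adjusted p = 0.16). Tlcd2 was the only one of the 10 whose mean did not rise from the second (53.2) to the third bin (52.4).

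**Figure D3:**
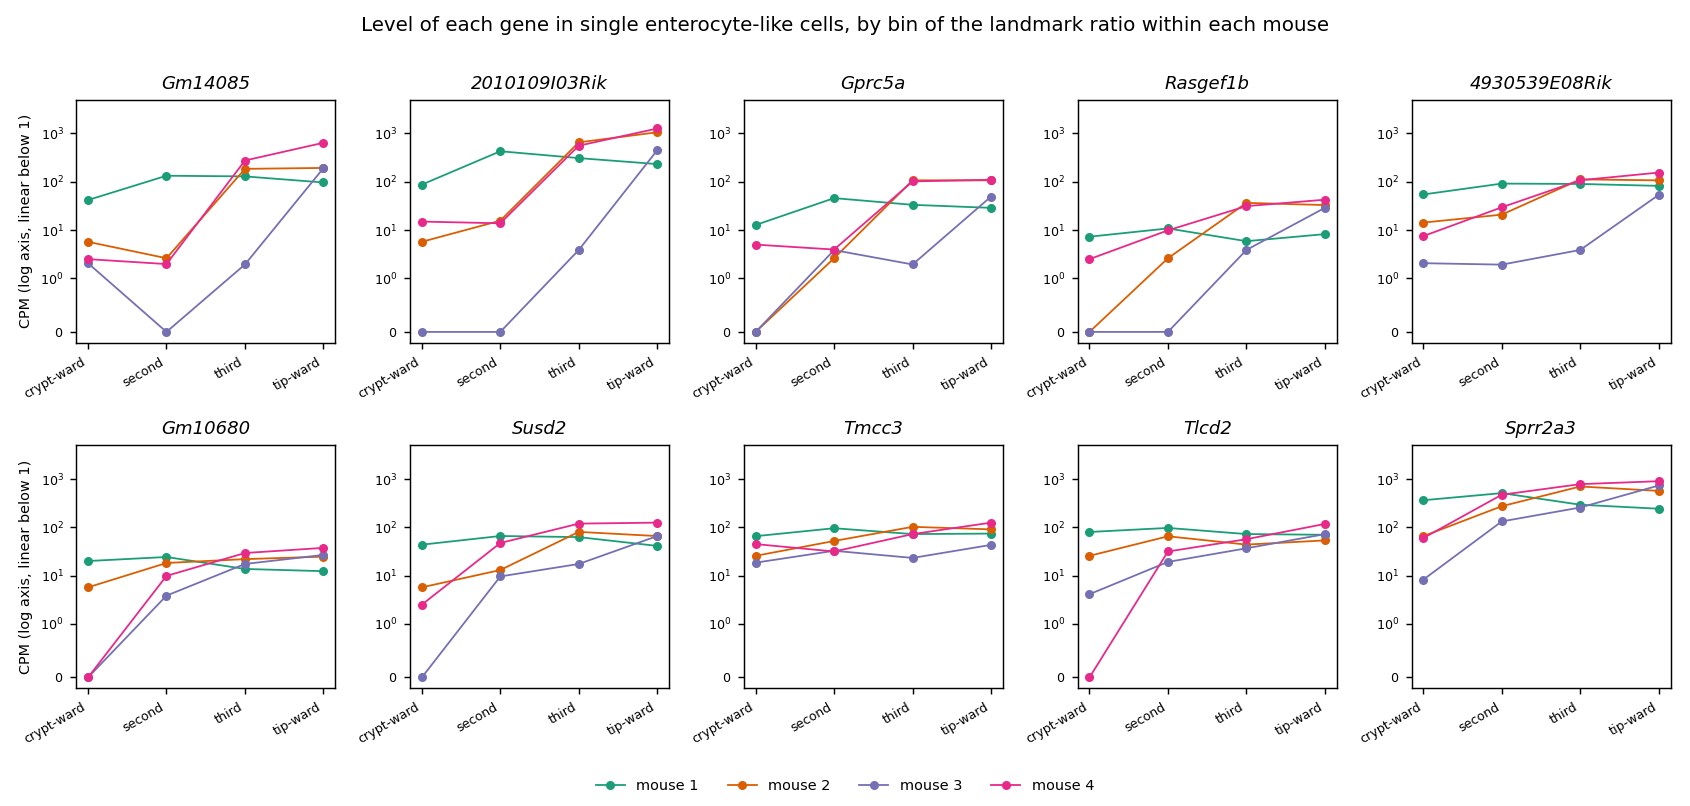
Level of each of the 10 genes in enterocyte-like single cells, in CPM on a log axis that is linear below 1, by bin of the landmark ratio within each mouse. Each line is 1 mouse; in mice 2 to 4 the tip-ward bin lies above the crypt-ward bin for all 10 genes, mouse 2 peaks before the tip-ward bin for 7 of them, and mouse 1, whose cells nearly all lie at the tip end of the scale, peaks in the second bin.

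When cells of all mice were instead split at the same tip shares, under 0.5 and from 0.95 up, all 10 passed the test, and 30.1% of all genes were higher from 0.95 up. Most of the 10 had few UMIs under 0.5 and passed the filter where they were high, so this count is a description. This split was chosen after seeing the data, and it left mouse 1 out of the lower group, where it had too few cells. Gm14085 then had 3 UMIs below and 845 above, a ratio of 74.2 (95% counting interval 25.3 to 361). 2010109I03Rik had 5 and 2149 UMIs, a ratio of 113 (48.5 to 349). Gm10680 had 0 and 92 UMIs and was at least 8.08-fold higher above, taking a floor of 3 UMIs over the group. Tmcc3 again had the smallest ratio, 2.87 (1.98 to 4.29).

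Relatives of these genes, taken from family lists, did not share one direction in enterocyte-like cells. Slc28a1, another nucleoside transporter, rose toward the tip (log2 1.53 ± 0.43, edgeR adjusted p = 0.019), the 1 gene of 3 listed in its family that could be tested. Tmcc1 rose as well (1.88 ± 0.47, edgeR adjusted p = 0.011), and of 3 Sprr genes tested Sprr2b rose (2.74 ± 0.82, edgeR adjusted p = 0.027). Both Ly6 relatives tested fell, with log2 differences of -2.16 for Ly6e and -3.91 for Lypd8 (edgeR adjusted p = 0.038 and 0.0060). Susd6 gave 0.71 ± 0.38 (edgeR adjusted p = 0.17). No other Rasgef1, Tlcd or Gprc5 gene passed the filter on low counts.

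A list of 20 tip genes outside the landmark lists, chosen with earlier results of these data known, gave a median log2 difference of 1.34, against 0.04 over all 3615 genes. Of these 20, 5 rose, where 6.53% of all genes tested did: Fos and Junb, of the AP-1 factors, the laminin chain Lama3, the nuclear RNA Neat1 and Fam83b. None fell. In clumps, the 19 of them that could be tested all rose from crypt to tip, as 23.0% of all genes did, but they are tip genes picked with these data known, so nothing is read from that. Of the family lists, Slc28a1 (3.37 ± 0.47), Tmcc1 (1.66 ± 0.34), Susd6 (1.46 ± 0.54) and the 4 Sprr genes tested (4.97 for Sprr2a2 to 8.04 ± 0.84 for Sprr1a) rose from crypt to tip in clumps. Ly6e (-2.90 ± 0.61) and Lypd8 (-1.56 ± 0.36) fell there, and Slc28a3 gave -1.30 ± 1.02 (edgeR adjusted p = 0.30). Sprr1a rose further from mid-villus to tip, by 4.70 ± 0.75, while Slc28a1 gave -0.77 ± 0.41 there (edgeR adjusted p = 0.00049 and 0.22).

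Among cell types, the 10 genes took different patterns. The comparison asked in which of the enterocyte-, goblet-, tuft- and enteroendocrine-like cells each gene was found. The genes tested were 5 (Gm14085, 2010109I03Rik, Sprr2a3, Tmcc3 and 4930539E08Rik), which passed the filter on low counts. The other 5 fell below it and are given by their counts. Sums of tuft-like cells came from mice 1 to 3 only, since mouse 4 had 4 such cells.

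Among these 4 types, Gm14085 was counted almost only in enterocyte-like cells. It measured 102, 88.4, 45.9 and 213 CPM in mice 1 to 4, and 1 UMI was counted in goblet-like, 2 in tuft-like and 2 in enteroendocrine-like cells. Since it passed the filter on low counts through enterocyte-like cells alone, its differences are given without a test. Pooled over mice, enterocyte-like cells held 54.9 times the goblet-like level (95% counting interval 9.83 to 2171), 22.9 times the tuft-like (6.33 to 190) and 28.3 times the enteroendocrine-like level (7.81 to 234), and the groups did not overlap. As ratios of mean CPM, which weigh mice equally, these were 90.1, 15.6 and 101. Without mouse 2, which gave 80 of the 212 goblet-like cells, 913 genes passed the filter on low counts. Gm14085 was not among them, and none of the 3 of the 10 genes left to test passed against goblet-like cells. Without mouse 4 Gm14085 fell below the filter too. Immune-like cells held 86 UMIs of Gm14085, at 30.5 to 62.7 CPM, and also Slc28a2 at 60.97 to 106 and Apoa4 at 212 to 823. Of the 2990 genes tested, 22.9%, 27.4% and 33.8% differed between enterocyte-like and goblet-, tuft- and enteroendocrine-like cells, and 13.7%, 15.4% and 20.4% were higher in the former. Groups did not overlap, enterocyte-like cells being higher, for 10.0%, 10.7% and 9.53%.

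2010109I03Rik was shared by enterocyte- and goblet-like cells. It measured 277, 373, 107 and 430 CPM in the former and 332, 421, 215 and 39.4 in the latter. The 2 types overlapped, with a log2 difference of 0.71 (95% interval -0.42 to 1.85, edgeR adjusted p = 0.44). Only 2 UMIs were counted in tuft-like and 2 in enteroendocrine-like cells, so these differences too are given without a test. Pooled over mice, enterocyte-like cells held 58.9 times the tuft-like (95% counting interval 16.3 to 487) and 72.7 times the enteroendocrine-like level (20.1 to 601), and as a ratio of mean CPM 152 and 266 times.

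Sprr2a3 was the one member with higher levels in goblet-like than in enterocyte-like cells in every mouse. It measured 1220, 1440, 1866 and 984 CPM in goblet-like cells and 371, 393, 277 and 555 in enterocyte-like cells. The log2 difference was -1.11 ± 0.52 (edgeR adjusted p = 0.13), and -1.10 with the mouse as a block (edgeR adjusted p = 0.046), where 11.7% of all genes were higher in goblet-like cells. Tuft- and enteroendocrine-like cells held 7 and 5 UMIs of Sprr2a3, and, again without a test, enterocyte-like cells held 23.2 (95% counting interval 11.3 to 57.8) and 40.1 (17.2 to 124) times their pooled level. The ratios of mean CPM were 23.0 and 143. In a further fit only the tip-ward bin of enterocyte-like cells was kept, beside goblet-like cells of all positions. The goblet difference of Sprr2a3 was then -0.37 (edgeR adjusted p = 0.58). 2010109I03Rik was 2.15 above goblet-like cells on the log2 scale, and 16.8% of all genes were higher in enterocyte-like cells. As the types were not matched in position, no p is given for 2010109I03Rik. Its values in the tip-ward cells of both types, given separately, overlapped between mice.

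4930539E08Rik was found in all 4 types. It measured 79.9, 59.2, 14.5 and 72.4 CPM in enterocyte-like and 78.1, 140, 39.9 and 0 in goblet-like cells. It measured 355, 220 and 61.7 in tuft-like cells of mice 1 to 3 and 264, 101, 45.7 and 0 in enteroendocrine-like cells. In mice 1 to 3 the tuft-like value was the highest of the 4 types, but no difference between enterocyte-like cells and another type passed the test. In mouse 3 the tuft- and enteroendocrine-like sums held 6 and 11 cells, with 16221 and 21889 UMIs of all genes. The order of the types in mouse 3 thus rests on very few UMIs. Enterocyte-like minus the other type, the fitted log2 differences were 0.35 ± 0.73 for goblet-, -0.66 ± 0.77 for tuft- and 0.52 ± 0.78 for enteroendocrine-like cells (edgeR adjusted p = 0.79, 0.63 and 0.64). As a ratio of mean CPM, enterocyte-like cells held 0.875, 0.267 and 0.551 times the level of these types. The fit and the means thus differ in direction for goblet- and enteroendocrine-like cells.

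Tmcc3 was also found in all 4 types, at 78.6, 65.5, 28.5 and 67.6 CPM in enterocyte-like cells, 215, 268, 64.9 and 39.4 in goblet-like cells and 151, 69.2, 91.4 and 0 in enteroendocrine-like cells. These ranges overlapped. Tuft-like cells were lowest, at 37.4, 38.1 and 0. The log2 difference from tuft-like cells was 2.16 ± 0.88 (edgeR adjusted p = 0.067), and 2.55 with the mouse as a block (edgeR adjusted p = 0.00066), where 20.8% of all genes were higher in enterocyte-like cells. Pooled over mice, 461 enterocyte-like and 15 tuft-like UMIs gave a smaller ratio, 1.65, with a 95% counting interval (0.987 to 2.96) that includes 1. The ratio of mean CPM was 2.39. Enterocyte-like minus goblet-like and minus enteroendocrine-like cells gave -0.69 ± 0.64 and 1.05 ± 0.74 (edgeR adjusted p = 0.51 and 0.30). For enteroendocrine-like cells the ratio of mean CPM went the other way, with enterocyte-like cells at 0.772 times their level, so no direction is given.

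Of the 5 genes below the filter, Tlcd2 had tuft-like levels within the range of enterocyte-like cells. It measured 56.0, 55.6 and 61.7 CPM in tuft-like cells and 81.2, 46.0, 32.4 and 49.5 in enterocyte-like cells. The pooled ratio of enterocyte- to tuft-like cells was 0.961 (95% counting interval 0.632 to 1.53). Goblet-like cells held 4 UMIs of Tlcd2 and enteroendocrine-like cells 1, giving ratios of 6.61 (2.56 to 24.4) and 27.3 (4.87 to 1080). As ratios of mean CPM these were 6.83 and 93.65.

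Susd2 measured 54.3, 41.8, 22.7 and 73.5 CPM in enterocyte-like cells, with 3 UMIs in goblet-like cells and none in the others. Enterocyte-like cells were at least 6.60-fold higher than tuft- and at least 8.15-fold higher than enteroendocrine-like cells, with a floor of 3 UMIs over each group. Gm10680 measured 18.2, 16.7, 11.6 and 18.6, with 1 UMI in goblet-like and none in tuft- and enteroendocrine-like cells (at least 2.23-fold and 2.75-fold higher). Against goblet-like cells the ratio of mean CPM was 3.55 for Susd2, whose mice overlapped, and 10.7 for Gm10680, whose mice did not. Enterocyte-like cells gave 7684716 UMIs of all genes and each of the other types far fewer, so low levels there were not detectable at this depth.

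Gprc5a measured 31.3, 49.4, 13.1 and 53.2 CPM in enterocyte-like cells. It had 5 UMIs in goblet-like, 2 in tuft-like and 10 in enteroendocrine-like cells, the last all in mouse 2. The pooled ratio to enteroendocrine-like cells was 1.78 (95% counting interval 0.955 to 3.76), where mouse 2 gave 447871 of the enteroendocrine-like UMIs of all genes. The ratio of mean CPM was 6.58. Rasgef1b measured 8.25, 16.7, 7.74 and 20.8, with 1 UMI in goblet-like, 3 in tuft-like and none in enteroendocrine-like cells. Its ratio to tuft-like cells, 1.75 (0.581 to 8.63), did not separate the types.

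**Figure D4:**
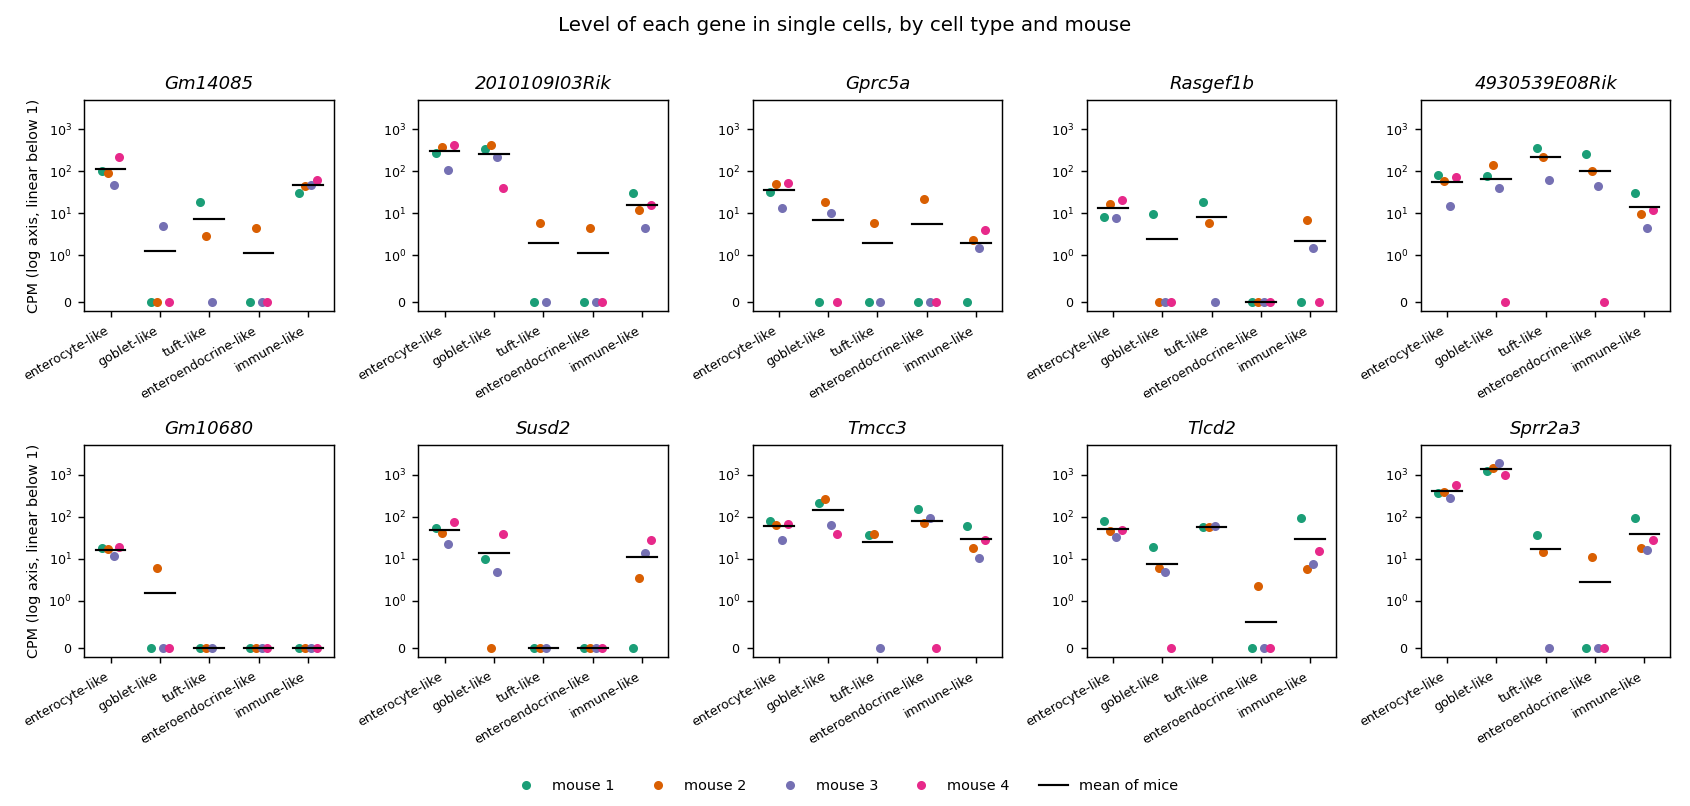
Level of each of the 10 genes in single cells, in CPM on a log axis that is linear below 1, by cell type. Points are mice 1 to 4 (tuft-like cells: mice 1 to 3) and lines their mean; Sprr2a3 is highest in goblet-like cells, 4930539E08Rik is present in all types, and Gm10680 lies at 0 in tuft-, enteroendocrine- and immune-like cells.

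Genes that define one cell type were also counted in the others. Apoa4, an enterocyte gene, measured 180 to 839 CPM in goblet-like cells, 46.9 to 708 in enteroendocrine-like and 61.7 to 392 in tuft-like cells, against 2815 to 7236 in enterocyte-like cells. The 12 goblet markers summed to 100 to 695 CPM in enterocyte-like and 136700 to 244400 in goblet-like cells. Slc28a2 had 2 UMIs in goblet-like cells, beside 147 of 2010109I03Rik and 760 of Sprr2a3, although its level in enterocyte-like cells was 91.4 to 383.8. Wells without a cell were not subtracted from the counts, and the part of free RNA in single UMIs was not tested.

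Goblet-like cells were split at the median of the goblet landmark ratio of each mouse, to see whether the genes found in goblet cells also rose toward the tip there. Sprr2a3 measured 518, 1100, 248 and 0 CPM in the crypt-ward and 1963, 1929, 3260 and 2697 in the tip-ward cells. The groups did not overlap, which was also so for 10.9% of the 329 genes tested. The log2 difference of Sprr2a3 was 2.07 ± 0.67 (edgeR adjusted p = 0.19), and 2.36 with the mouse as a block (edgeR adjusted p = 0.026), where 4.26% of all genes were higher tip-ward. No gene passed edgeR's test in this comparison (0.0%), while 66 had an unadjusted p under 0.05 and DESeq2 called 13. At an adjusted p under 0.25, Sprr2a3 was among the 4.56% of genes tested that were higher tip-ward.

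The other goblet-expressed genes were below the filter in this comparison and are given by their values. 2010109I03Rik measured 0, 151, 10.8 and 0 CPM crypt-ward and 667, 739, 390 and 108 tip-ward, higher in all 4 mice. Its 14 and 131 UMIs gave a ratio of 9.46 (95% counting interval 5.44 to 17.8). Tmcc3 gave 6.16 (3.23 to 12.9) and 4930539E08Rik 4.62 (2.00 to 12.4), each higher tip-ward in mice 1 to 3 and not in mouse 4, which had 15 goblet-like cells in all. Gprc5a had 5 tip-ward and 0 crypt-ward UMIs and Tlcd2 4 and 0, at least 1.68-fold and 1.35-fold higher. Gm14085, Rasgef1b, Gm10680 and Susd2 had 1 to 3 UMIs in both groups together. Summed goblet markers ran from 51260 to 249600 CPM crypt-ward and from 231000 to 285400 tip-ward. Summed enterocyte markers ran from 2005 to 3562 and from 2340 to 5927. The part of these shifts in the values was not tested.

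**Figure D5:**
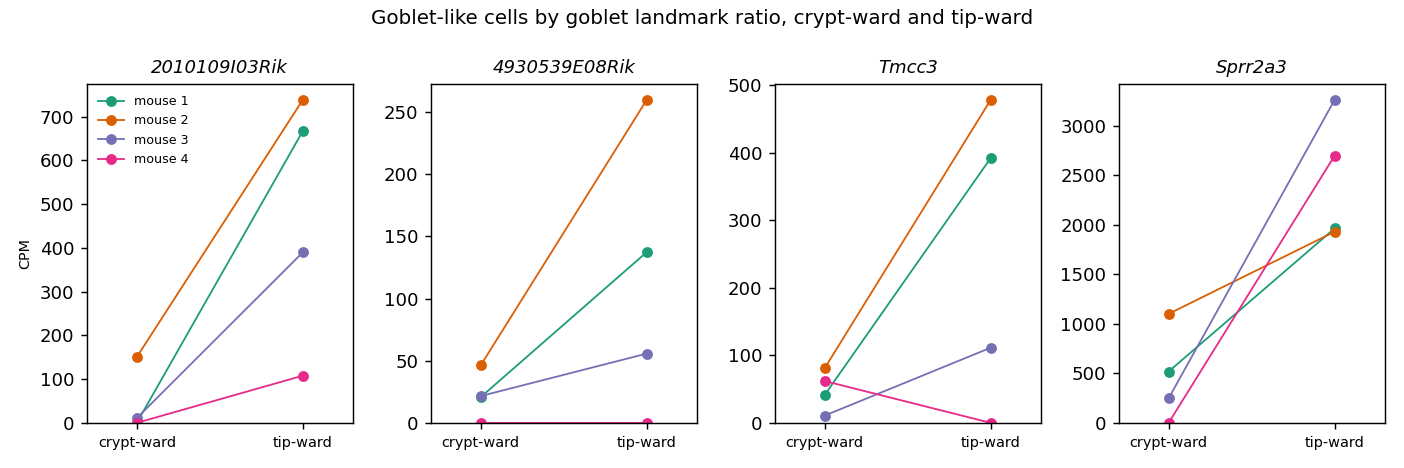
Level in goblet-like single cells, in CPM on a linear axis from 0, in the crypt-ward and tip-ward cells of each mouse, for the 4 genes with at least 20 UMIs there. Lines join the groups of 1 mouse; Sprr2a3 and 2010109I03Rik rise in all 4 mice, Tmcc3 falls in mouse 4 and 4930539E08Rik is at 0 in both groups of mouse 4.

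Whether the rise differed between enterocyte- and goblet-like cells was tested as an interaction, in which 7 of the 10 genes passed the filter. None passed the test. The interaction was 1.58 ± 1.60 on the log2 scale for 2010109I03Rik (edgeR adjusted p = 0.83), 0.37 ± 1.37 for Sprr2a3 (0.99) and -0.89 ± 1.16 for Tmcc3 (0.89). The 95% intervals were wide, for example -1.57 to 4.72 for 2010109I03Rik and -2.32 to 3.07 for Sprr2a3. No gene of 2018 passed (0.0%), while 123 had an unadjusted p under 0.05 and DESeq2 called 4. The interaction of 2010109I03Rik rested on single mice: it was 5.14 without mouse 1 (edgeR adjusted p = 0.048, where 0.135% of all genes were higher) and -1.86 without mouse 2 (edgeR adjusted p = 1.00).

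Near copies bear on 2 of the genes. The last 500 bases of the Gm14085 and Slc28a2 transcripts were 97.8% identical, and reads of both could be divided between them. Per 1000 UMIs of Slc28a2, Gm14085 gave 488 (95% counting interval 449 to 530) in enterocyte-like cells, with 421 to 555 over mice. In clumps the ratio was 329 (252 to 426) in the crypt, 292 (181 to 457) at mid-villus and 490 (448 to 536) at the tip. Over mice it ran from 133 to 750 in the crypt and from 422 to 628 at the tip, and these ranges overlapped. Slc28a2 itself rose from 1.47 to 19.02 CPM in the crypt and 0 to 33.4 at mid-villus to 504 to 1122 at the tip.

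Sprr2a3 was 99.4% identical to Sprr2a1 and Sprr2a2 over the last 500 bases, and those 2 were identical to each other there. Per 1000 UMIs of Sprr2a1, Sprr2a3 gave 327 (314 to 341) in enterocyte-like and 324 (298 to 352) in goblet-like cells. Per 1000 UMIs of Sprr2a2 it gave 371 (356 to 387) and 425 (390 to 463), and the ranges over mice, 318 to 463 and 337 to 531, overlapped. The values of the 3 copies are therefore uncertain as to the copy. Against goblet-like cells, Sprr2a1, Sprr2a2 and Sprr2b gave -1.11, -0.90 and -1.02 on the log2 scale, none past the test (edgeR adjusted p = 0.24, 0.29 and 0.19).

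Over the 15 sums of mouse and zone in clumps, the log2 levels of pairs of the 10 genes had a median Pearson correlation of 0.835 (0.630 to 0.989, 45 pairs). Over the 16 enterocyte bins the median was 0.835 as well (0.577 to 0.976). These points share the tip-ward rise and their libraries, so the values describe likeness only. The closest genes were sought with landmark genes left out, apart from those among the 10, so Slc28a2 and Apoa4 could not appear. Gm14085 was closest to Gprc5a (0.989 in clumps, 0.956 in enterocytes), followed by the sugar phosphate enzyme Pgm1 (0.984 and 0.846) and Pmepa1 (0.978 and 0.947). Gprc5a had the same neighbours, and 2010109I03Rik had Pgm1, Gm14085 and Asap1.

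For the others, the closest genes in clumps were Aplp1 for Gm10680 (0.966), Asap1 for 4930539E08Rik (0.969), Tmem140 for Rasgef1b (0.971), Apol7a for Susd2 (0.978), the lysosomal lipase Lipa for Tlcd2 (0.975) and Zcchc6 for Tmcc3 (0.956). In enterocyte bins these pairs gave 0.839, 0.971, 0.799, 0.816, 0.399 and 0.794. Sprr2a3 was closest to its copies Sprr2a2 (0.993) and Sprr2a1 (0.993), then to the selenium transport protein Sepp1 (0.980).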

How the data were processed

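Single cells and clumps of attached cells from mouse jejunum were profiled by MARS-seq. The authors demultiplexed reads with bcl2fastq 2.15.0.4, aligned them with STAR to GRCm38 and counted UMIs per gene and well by strand with zUMIs, and the deposited values are whole-number counts, not normalized. Their subtraction of empty-well background is not part of those counts and was not repeated. Columns of the tables were assigned to samples through the plate names. Clumps with at least 200 genes, over 500 UMIs and at most 30% mitochondrial UMIs were kept, without the 2% lowest in landmark share. For single cells the bounds were 200 and 7000 UMIs, 150 and 1500 genes, and 40% for mitochondrial UMIs, and no doublet caller was run.

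Clumps took the zone whose landmark list correlated best. Cells were clustered with scanpy 1.11.5 (2000 variable genes, 25 components, 20 neighbours, resolution 0.1). Enterocyte-like cells with at least 10 landmark UMIs and goblet-like cells with at least 5 were ranked by tip over tip plus crypt landmark UMIs within each mouse. Counts were summed per mouse and group (at least 5 cells), and the mouse was the replicate. Sums were tested by edgeR 4.0.16 in R 4.3.3 (filterByExpr, TMM, quasi-likelihood test, two-sided, Benjamini-Hochberg over all genes tested, threshold 0.05), with landmark genes left out where they defined the groups. The fit was tested on simulated data with known changes. Alternatives were DESeq2 1.42.0, its size factors, no filter, the mouse as a block, leaving out each mouse, other position and cell type calls and pairs of cells only. Further alternatives were chosen after seeing the data: fixed bounds of the tip share, landmarks without Apoa4, and leaving out the 4 month plates.

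The same mouse number within a table was taken as the same animal, so numbers pair the groups. Mouse 2 of the single cells carries 2 ages in the labels and may be more than 1 animal; without its 4 month plates no call of the 10 genes changed in the enterocyte bins or between cell types. Deviations from group means of the same mouse correlated at 0.0595 to 0.373 for the outer enterocyte bins and 0.161 to 0.592 for enterocyte- and goblet-like cells. Ratios of pooled UMIs carry exact 95% intervals, and a floor of 3 UMIs stands for 0. Intervals cover counting error only, and depth limits the rarest cell types most. The series was sequenced in several batches that the labels do not tell apart. No pair of sums looked like repeats of 1 library.

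The 10 genes were named in every comparison, and family members where they passed the test. For each gene, the 3 genes with the highest correlation of log2(CPM + 5) over clump sums were named, landmarks outside the 10 left out. The genes and lists were chosen with earlier results of these data known.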

Additional observations from a re-analysis of the deposited data

Results flagged for a closer look

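Single samples stood apart by Dixon's test in 12 of the 100 groups of 4 or 5 mice tested, where chance gives about 1 in 20. Of these, 6 were from mouse 1 in the enterocyte bins: Gm14085 at 41.8 and 133 CPM in the crypt-ward and second bins, 2010109I03Rik at 428 and Gprc5a at 45.8 in the second, and Sprr2a3 at 364 and Susd2 at 43.6 in the crypt-ward bin. In clumps, Gm10680 in mouse 5 stood apart in the crypt (8.18) and at the tip (513), and Tmcc3 in mouse 3 at the tip (348). In mouse 2, 2010109I03Rik stood apart in crypt-ward goblet-like cells (151), and Gprc5a (22.3) and Sprr2a3 (11.2) in enteroendocrine-like cells.

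Some of the genes were also counted in single cells that entered no comparison. Pooled over mice, Gm14085 measured 47.7 CPM in immune-like cells and 10.7 in an unnamed cluster led by Cd74 and Lyz2. Rasgef1b measured 23.97 in that cluster, from 9 UMIs. Susd2 measured 10.5 in immune-like cells and 10.8 in an unnamed cluster led by Jchain and Igha. The source of these UMIs was not tested.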

How the results depend on the processing

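Of 765 values for single genes under the alternatives, 676 kept their direction and side of the threshold or moved within the spread, 44 newly passed, 12 no longer passed, 32 moved and 1 reversed: Gm14085 at mid-villus against crypt was 0.91, and -0.48 (without mouse 3) to 1.203 leaving out 1 mouse. Causes were not tested. Between the outer enterocyte bins, the count of genes called (791) was 1316 with no filter, 1661 with the mouse as a block, 2813 with fixed bounds and 0 to 1753 leaving out 1 mouse. Of the 10 genes, 4 passed, 10 under each of those 3 settings, 7 with at least 20 landmark UMIs, 8 between tip and mid-villus zones and 0 to 10 leaving out 1 mouse. Against goblet-like cells, 684 genes became 1262 with no filter, 1243 with tip-ward enterocytes only and 196 to 814 leaving out 1 mouse (196 without mouse 2, where 913 genes were tested). There, 1 of the 10 passed (Gm14085, through the filter in enterocyte-like cells alone, so that these counts between cell types only describe the fits), 5 with no filter, 2 with the block, 2 by marker sums, 4 with tip-ward enterocytes and 0 to 2 leaving out 1 mouse. Against tuft-like cells, 818 genes became 1946 with no filter, 1303 with tip-ward enterocytes and 160 to 943 leaving out 1 mouse (160 without mouse 2), and 3 of the 10 became 6, 6 and 2 to 3. Against enteroendocrine-like cells, 1010 became 3048, 1579 and 249 to 1248 (249 without mouse 2), and 3 of the 10 became 8, 5 and 2 to 4. In goblet-like cells, 0 became 13 by DESeq2, 45 with the block and 0 leaving out any mouse, and of the 10 genes 0 became 1 by DESeq2 and 1 with the block. For the interaction, 0 became 4 by DESeq2, 7 with no filter, 8 with the block and 0 to 15 leaving out 1 mouse, and of the 10 genes 0 to 1. In clumps, the median log2 change of the 10 genes from crypt to tip (6.85) was 6.50 by DESeq2, 6.56 with its size factors, 6.11 with no filter, 5.07 in pairs only and 6.45 to 7.04 leaving out 1 mouse. From mid-villus to tip it was 2.54, 1.82 in pairs only and 2.52 to 2.73 leaving out 1 mouse. From crypt to mid-villus it was 2.69, 2.18 with no filter and 2.41 to 2.79 leaving out 1 mouse. With DESeq2's size factors, the split of higher and lower genes from crypt to tip went from 1669 and 2196 to 1281 and 2625, as the median of all genes went from -0.10 to -0.41, and from crypt to mid-villus from 1401 and 1585 to 823 and 2115 (median 0.05 to -0.28). The block moved the count of genes called from mid-villus to tip in clumps from 936 to 2006, and changed no further call of the 10 genes in single cells beyond those in the report. Rasgef1b could not be tested between tip and mid-villus zones of single cells. Pairs alone gave 6 and 11 tip clumps in mice 4 and 5.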
